A study of Mus musculus with 12 samples.

Results

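The 9 genes described here belong to the transforming growth factor beta (TGF-beta) pathway and were followed across CD8 T cell libraries from mouse brain and blood. They were taken by name from the deposited table of 23937 genes, and all 9 were present: the ligand gene Tgfb1, the receptor genes Tgfbr1 and Tgfbr2, the signal transducer genes Smad2, Smad3 and Smad4, the inhibitory Smad7, and the repressor genes Ski and Skil. The 12 libraries formed 4 groups of 3: CD8 T cells from the blood of naive mice, from the brain of naive mice, from brain 3 days after stroke and from brain 30 days after stroke. Cells were isolated by flow sorting. No source used here gives the strain, sex or age of the mice, or how the stroke was made. Spleens are named in the protocol text, but titles and tissue labels name brain or blood and were followed. Whether the 3 samples of each group are from separate mice is not stated, so p-values reflect only sample-to-sample spread, possibly of technical origin.

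TGF-beta 1 is secreted in a latent form that must be released before it can act. The active ligand binds the receptor kinase Tgfbr2, which recruits and phosphorylates Tgfbr1. Tgfbr1 then phosphorylates Smad2 and Smad3, which join Smad4 and enter the nucleus, where Ski and Skil repress their targets, while Smad7 blocks the receptor. In CD8 T cells the pathway is known for restraining effector functions and for inducing the integrin CD103 of tissue-resident cells, and in the brain microglia depend on it.

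The proximal promoters of the ligand and its receptors are shown because Tgfb1 and Tgfbr1 were the only members to pass the test in any comparison, and Tgfbr2 did not. Of the 9 members, 5 matched the RefSeq promoter table (build GRCm38.p6). Each sequence holds the 250 bases before the RefSeq start, 5′ to 3′ on the gene's own strand. Capitals mark the GC box GGGCGG, a motif bound by Sp1 family factors, and the Smad box CAGAC, each on either strand.
Tgfb1, chr7:25686752-25687001, plus strand: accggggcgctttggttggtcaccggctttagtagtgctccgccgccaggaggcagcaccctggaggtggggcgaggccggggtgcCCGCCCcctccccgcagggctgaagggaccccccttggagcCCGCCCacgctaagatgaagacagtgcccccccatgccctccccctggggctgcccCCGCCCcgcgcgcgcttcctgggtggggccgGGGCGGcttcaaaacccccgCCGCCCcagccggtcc
Tgfbr1, chr4:47352972-47353221, plus strand: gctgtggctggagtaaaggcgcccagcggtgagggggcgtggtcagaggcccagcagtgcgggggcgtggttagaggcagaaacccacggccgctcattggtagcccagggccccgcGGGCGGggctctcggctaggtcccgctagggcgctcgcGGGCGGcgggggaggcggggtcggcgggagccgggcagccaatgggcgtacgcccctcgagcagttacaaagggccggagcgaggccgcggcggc
Tgfbr2, chr9:116175364-116175613, minus strand: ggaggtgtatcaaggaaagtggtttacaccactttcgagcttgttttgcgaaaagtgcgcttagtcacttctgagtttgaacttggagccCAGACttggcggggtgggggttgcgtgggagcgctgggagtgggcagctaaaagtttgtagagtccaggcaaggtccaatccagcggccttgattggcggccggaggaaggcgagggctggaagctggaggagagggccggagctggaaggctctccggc
The Tgfb1 window held 5 GC boxes and the Tgfbr1 window 2, while the Tgfbr2 window held 0. The Smad box was found 1 time, in the Tgfbr2 window. The AP-1 motif TGANTCA had 0 matches in each of these 3 windows, and no marked motif overlapped another. Among 32817 windows of the same length, 32.7% held a GC box, 42.2% a Smad box and 6.75% the AP-1 motif. GC content was 75.2%, 74.8% and 58.4% in the order shown. The windows of Ski and Smad3, which are not shown, held 5 and 2 GC boxes, and neither gene passed the test in any comparison. GC boxes were therefore not particular to the members that passed. Such matches describe the letters and show no binding.

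On mm10, by GENCODE, Tgfb1 spans bases 25687002 to 25705077 of chromosome 7, Tgfbr1 bases 47353222 to 47414931 of chromosome 4 and Tgfbr2 bases 116084293 to 116175360 of chromosome 9. Smad2, Smad4 and Smad7 lie on chromosome 18, Smad3 on chromosome 9, Ski on chromosome 4 and Skil on chromosome 3. Only Smad4 overlaps another annotated gene, a processed pseudogene on the opposite strand, and reads of the overlap cannot be assigned without strand.

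Depth ran from 1104490 to 21014171 reads per library. Levels are CPM, that is reads scaled to an adjusted library size. A difference is the mean log2(CPM + 1) of the group named first less that of the other, with its SE, on a scale that understates changes of low genes. Reads on 1490 genes for smell, vomeronasal and taste receptors, used here as a measure of background, also varied between libraries. These came to 165 to 884 unscaled CPM in 5 libraries, called low background here (the 3 naive brain libraries and replicate 1 of each stroke group), and to 2016 to 7884 in the other 7, called high background (all of blood and the rest). Naive brain and blood therefore cannot be told apart from background. The scaling followed the same split. CPM summed over all genes to 1344470 or more in each low background library and to 880022 or less in each of the others. Of the CD8 T cell markers, 9 of 10 were in the table and all 9 had reads in every library, with a summed share of 0.302% to 0.449% of reads in blood, 0.639% to 0.808% in naive brain, 0.0678% to 0.231% at day 3 and 0.458% to 1.20% at day 30. All 12 microglia markers had reads in every library, none of them at 0, and summed to 0.0192% to 0.0455% in blood, 1.07% to 2.19% in naive brain, 0.405% to 1.503% at day 3 and 0.199% to 0.565% at day 30. The 12 monocyte and macrophage markers summed to 0.0575% to 0.178%, 0.289% to 0.418%, 0.527% to 1.75% and 0.303% to 0.447% in the same order. In bulk samples, fewer cells of a type and less RNA per cell cannot be told apart.

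The comparison of naive brain with naive blood asks what differs between the tissues without stroke, and it was the only one of 6 in which members passed the test. Of the 9 members, 2 were higher in brain (Tgfb1 and Tgfbr1) and 0 lower. By limma, 7.59% of the 22352 tested genes were called, 6.61% as higher and 0.975% as lower. The 9 members had a median log2 difference of 1.39, beside a median of -0.37 over all tested genes. The member median was 0.19 with unscaled CPM, 0.22 with quantile normalization, 0.61 with the background term and 2.66 with median centring. In the same order the all-gene median was -1.05, -0.14, 0.02 and 0.90. In 7 of the 9 members all 3 brain libraries lay above all 3 blood libraries, against 15.6% of tested genes. The exceptions were Smad2 and Smad4, whose groups overlapped. This separation depended on the scaling. With unscaled CPM only Tgfb1 was above blood in all libraries (6.68% of tested genes) and Smad4 was below (26.1%), while the other 7 members overlapped.

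Tgfb1, the ligand gene, measured 36.8, 88.4 and 219 CPM in replicates 1 to 3 of naive brain, whereas blood had 14.1, 2.74 and 4.22 CPM. The groups did not overlap, but the brain libraries themselves spread 5.96-fold. The difference was 3.77 ± 1.02 (adjusted p = 0.0119). The call was lost without naive brain replicate 3, the highest library (3.13, adjusted p = 0.128), and without blood replicate 2, the lowest (3.35, adjusted p = 0.0586). It was also lost with unscaled CPM (2.64, adjusted p = 0.0770), with quantile normalization (3.52, adjusted p = 0.0546) and with a term for library background (1.43, adjusted p = 0.9995). Over all alternatives adjusted p ran from 0.00476 to 0.9995, and the difference stayed above 0 in each of 24.

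Tgfbr1, which encodes the receptor that phosphorylates Smad2 and Smad3, measured 241, 161 and 240 CPM in naive brain, compared with 15.1, 69.1 and 30.3 CPM in blood. Brain libraries were close to each other here and well above blood. The difference was 2.69 ± 0.80 (adjusted p = 0.0262). The call ended without blood replicate 1 or 3 (adjusted p = 0.129 and 0.0630) and without naive brain replicate 1, 2 or 3 (adjusted p = 0.0624, 0.0535 and 0.101). It also ended with unscaled CPM (1.49, adjusted p = 0.120), quantile normalization (1.51, adjusted p = 0.304), edgeR (2.46, adjusted p = 0.0689), DESeq2 (1.92, adjusted p = 0.0684) and the background term (2.08, adjusted p = 0.9995). Over all alternatives the difference ran from 1.49 to 3.95 and adjusted p from 0.0119 to 0.9995.

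Tgfbr2, the receptor that binds the ligand, was the member with the least spread in naive brain by log2 value after Smad3. It measured 332, 287 and 285 CPM there and 213, 78.4 and 107 CPM in blood. Every brain library was above every blood library, yet the difference of 1.30 ± 0.70 did not pass (adjusted p = 0.224). With quantile normalization it was 0.0025.

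Smad3, a transducer of the receptor signal, measured 56.6, 53.4 and 48.0 CPM in naive brain, compared with 3.79, 14.3 and 21.5 CPM in blood. Brain values differed by only 1.18-fold, whereas those of blood differed by 5.67-fold. The difference was 2.18 ± 0.91 (adjusted p = 0.121), and it passed with median centring (3.45, adjusted p = 0.0311). Of its alternatives, adjusted p ran from 0.0311 to 0.9995. Ski, a repressor of Smad complexes, measured 169, 231 and 234 CPM in naive brain against 98.4, 58.1 and 41.9 CPM in blood (1.73 ± 0.76, adjusted p = 0.137).

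Skil, the second Ski family repressor and itself a target of the pathway, measured 84.5, 166 and 114 CPM in naive brain, compared with 40.0, 30.7 and 68.3 CPM in blood (1.39 ± 0.78, adjusted p = 0.242). Smad7, the inhibitory Smad and another target, measured 89.9, 143 and 177 CPM against 68.7, 84.5 and 56.0 CPM (0.93 ± 0.75, adjusted p = 0.421). Its groups were separate by a narrow margin, and the difference turned to -0.30 with quantile normalization.

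Smad4, the partner of Smad2 and Smad3, was the only member lower in naive brain than in blood by its estimate. It measured 26.3, 50.0 and 123 CPM in brain, compared with 102, 80.1 and 94.0 CPM in blood (-0.73 ± 0.80, adjusted p = 0.564). The blood libraries lay inside the range of the brain libraries, but with unscaled CPM all brain libraries (19.6 to 59.1) were below all blood libraries (125 to 132). The difference was -1.93 there (adjusted p = 0.0587), -2.37 with the background term (adjusted p = 0.973) and 0.53 with median centring (adjusted p = 0.787). For Smad2 the sign turned in 4 of 24 alternatives. Smad2 measured 103, 5.06 and 62.1 CPM in brain, compared with 4.87, 41.7 and 54.2 CPM in blood (0.51 ± 0.93, adjusted p = 0.743). The low Smad2 value of naive brain replicate 2 came from 47 reads in a library of 14884783, with a 95% Clopper-Pearson interval of 3.72 to 6.73 CPM, so counting error does not cover its distance from the other naive brain libraries. Such intervals cover counting error only, because the libraries carry no molecular identifiers.

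**Figure D1:**
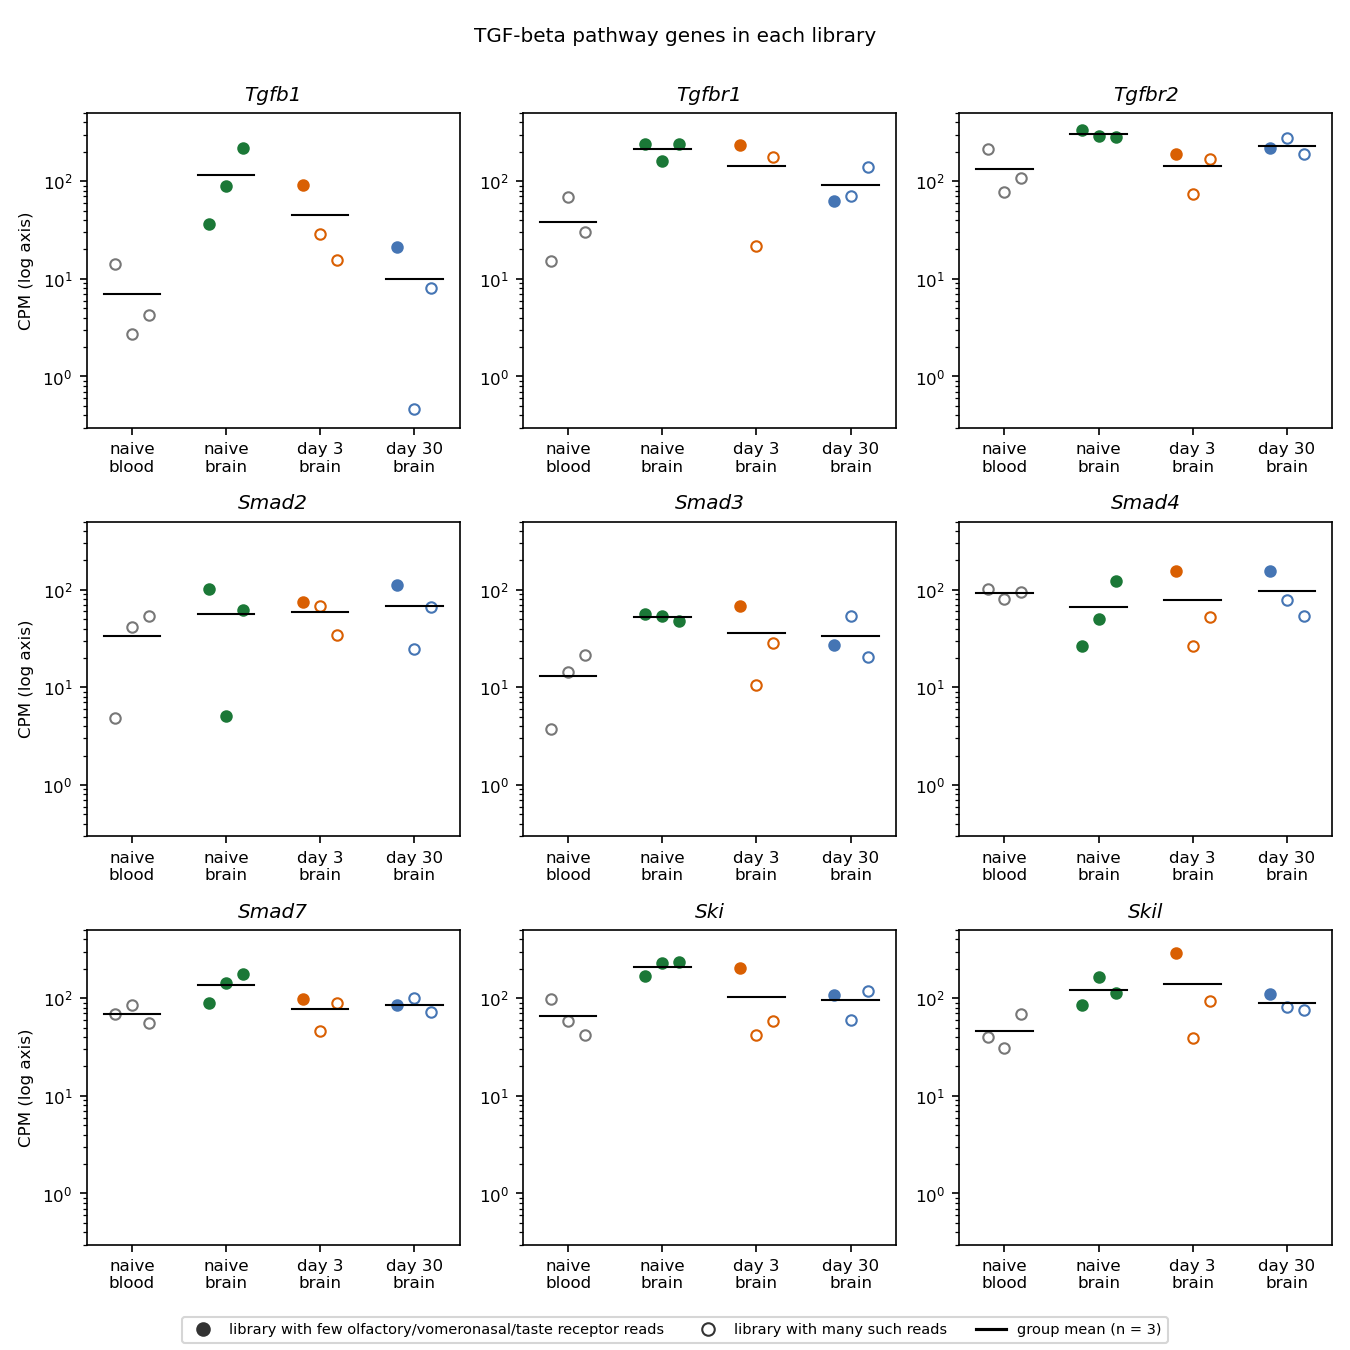
CPM of each of the 9 genes in the 12 libraries, on a log axis, by group. Points are libraries (filled for low background, open for high background, replicates 1 to 3 from left to right) and bars are group means. Tgfb1 spans 0.459 to 219 CPM over the libraries, whereas Tgfbr2 spans 73.2 to 332 CPM.

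Early differences after stroke are addressed by day 3 brain against naive brain. None of the 9 members passed by limma (0 higher and 0 lower), and 0 had an unadjusted p under 0.05. By edgeR and DESeq2 0 members passed as well. Over all tested genes limma called 0.716%. Estimates were below 0 for 7 members and above 0 for Smad2 and Smad4, with a median of -0.90 beside 0.50 over all tested genes. With unscaled CPM the member median was 0.04 and with quantile normalization -0.02. Against that all-gene median, 8 of 9 members were lower, and 5 of 9 with quantile normalization.

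Tgfb1 measured 92.2, 28.7 and 15.5 CPM at day 3. Replicate 1 lay inside the naive brain range and the others below it (-1.34 ± 1.02, adjusted p = 0.492). Tgfbr1 measured 233, 21.8 and 176 CPM (-1.11 ± 0.80, adjusted p = 0.481), and a single library, replicate 2, held the low value. Tgfbr2 measured 188, 73.2 and 167 CPM, all 3 below the lowest naive brain library. It was the only member whose groups did not overlap, against 8.5% of tested genes with day 3 below, and its difference of -1.18 ± 0.70 did not pass (adjusted p = 0.435). With unscaled CPM its groups overlapped too.

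Among the Smads, Smad3 measured 68.5, 10.5 and 28.4 CPM at day 3 (-0.90 ± 0.91, adjusted p = 0.579). Smad7 measured 99.2, 45.9 and 90.0 CPM (-0.81 ± 0.75, adjusted p = 0.546). Smad4 measured 156, 26.4 and 52.5 CPM (0.14 ± 0.80, adjusted p = 0.924), and Smad2 75.4, 68.2 and 34.3 CPM (0.75 ± 0.93, adjusted p = 0.642). All of these groups overlapped naive brain.

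Of the repressors, Ski measured 206, 42.3 and 58.9 CPM (-1.37 ± 0.76, adjusted p = 0.417), and Skil 288, 39.6 and 93.2 CPM (-0.19 ± 0.78, adjusted p = 0.891). In scaled CPM replicate 1 was the highest day 3 library for each of the 9 genes, and it was also the only low background library of day 3. That order depended on the scaling. With unscaled CPM replicate 1 was the lowest day 3 library for Tgfbr2, Smad2 and Smad7. For Tgfbr1 it was then below replicate 3 (144 against 260). Within the 5 low background libraries, where day 3 is this 1 library and is assumed to vary like the other groups, Tgfb1 differed from naive brain by 0.04, Tgfbr1 by 0.15 and Tgfbr2 by -0.67, and 0 members passed. Background and the low scaled values of the other day 3 libraries moved together, and the part of background or scaling in them was not tested. With unscaled CPM, which raised the all-gene median to 1.13, the estimates of Smad3, Smad7 and Skil turned positive, to 0.04, 0.16 and 0.79.

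At day 30, the comparison with naive brain again gave 0 members higher and 0 lower by limma, beside 0.224% of all tested genes. One member, Tgfb1, had an unadjusted p under 0.05. Tgfb1 measured 21.1, 0.459 and 8.13 CPM in replicates 1 to 3, all below the lowest naive brain library of 36.8 CPM. Replicate 2 had 1 Tgfb1 read in 1723245, with an interval of 0.0116 to 2.56 CPM. The difference was -3.77 ± 1.02, the largest of any member in absolute size in this comparison, and did not pass (adjusted p = 0.102). It passed without day 30 replicate 1 (-4.63, adjusted p = 0.00534) and by DESeq2 (-3.33, adjusted p = 0.0464). Over the alternatives the difference stayed between -4.63 and -2.04, with adjusted p from 0.00534 to 1. The end nearest 0 came from the low background libraries alone, where day 30 is replicate 1.

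In 4 members all day 30 libraries lay below all naive brain libraries, against 6.03% of tested genes. These were Tgfb1, Tgfbr1, Tgfbr2 and Ski. With unscaled CPM only Tgfb1 remained below (3.36% of tested genes), and Smad4 was above in all day 30 libraries (10.8%). Tgfbr1 measured 62.3, 70.2 and 141 CPM (-1.30 ± 0.80, adjusted p = 0.648). Tgfbr2 measured 219, 275 and 189 CPM (-0.42 ± 0.70, adjusted p = 0.872), and turned to 0.28 with quantile normalization. Ski measured 107, 60.1 and 118 CPM (-1.19 ± 0.76, adjusted p = 0.654).

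The remaining members overlapped naive brain. Smad3 measured 27.0, 53.7 and 20.3 CPM (-0.74 ± 0.91, adjusted p = 0.814), Smad7 85.9, 101 and 71.8 CPM (-0.62 ± 0.75, adjusted p = 0.811) and Skil 111, 82.2 and 76.3 CPM (-0.39 ± 0.78, adjusted p = 0.894). Smad2 and Smad4 had estimates above 0, with 111, 24.8 and 66.8 CPM for Smad2 (0.77 ± 0.93, adjusted p = 0.811) and 156, 78.5 and 54.2 CPM for Smad4 (0.66 ± 0.80, adjusted p = 0.810). The median over the 9 members was -0.62, beside 0.19 over all tested genes. It was 0.06 with unscaled CPM, beside 0.57 over all tested genes, and 0.03 with quantile normalization, beside 0.06. In the main fit and with unscaled CPM 2 of the 9 members were above the all-gene median, and 4 with quantile normalization.

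Between the times after stroke, day 30 against day 3, 0 members passed, beside 0.255% of all tested genes. Tgfb1 had the largest estimate (-2.43 ± 1.02, adjusted p = 0.668, unadjusted p = 0.0199), and its groups overlapped, since 21.1 CPM in day 30 replicate 1 exceeded 15.5 CPM in day 3 replicate 3. Tgfbr2 was the only member with separate groups, higher in all 3 day 30 libraries (0.76 ± 0.70, adjusted p = 0.9993), against 4% of tested genes. With unscaled CPM its groups overlapped, and Tgfb1 was lower in all day 30 libraries (6.96% of tested genes). The other 7 members lay between -0.21 and 0.53. With the replicate number as a block, still 0 members passed.

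**Figure D2:**
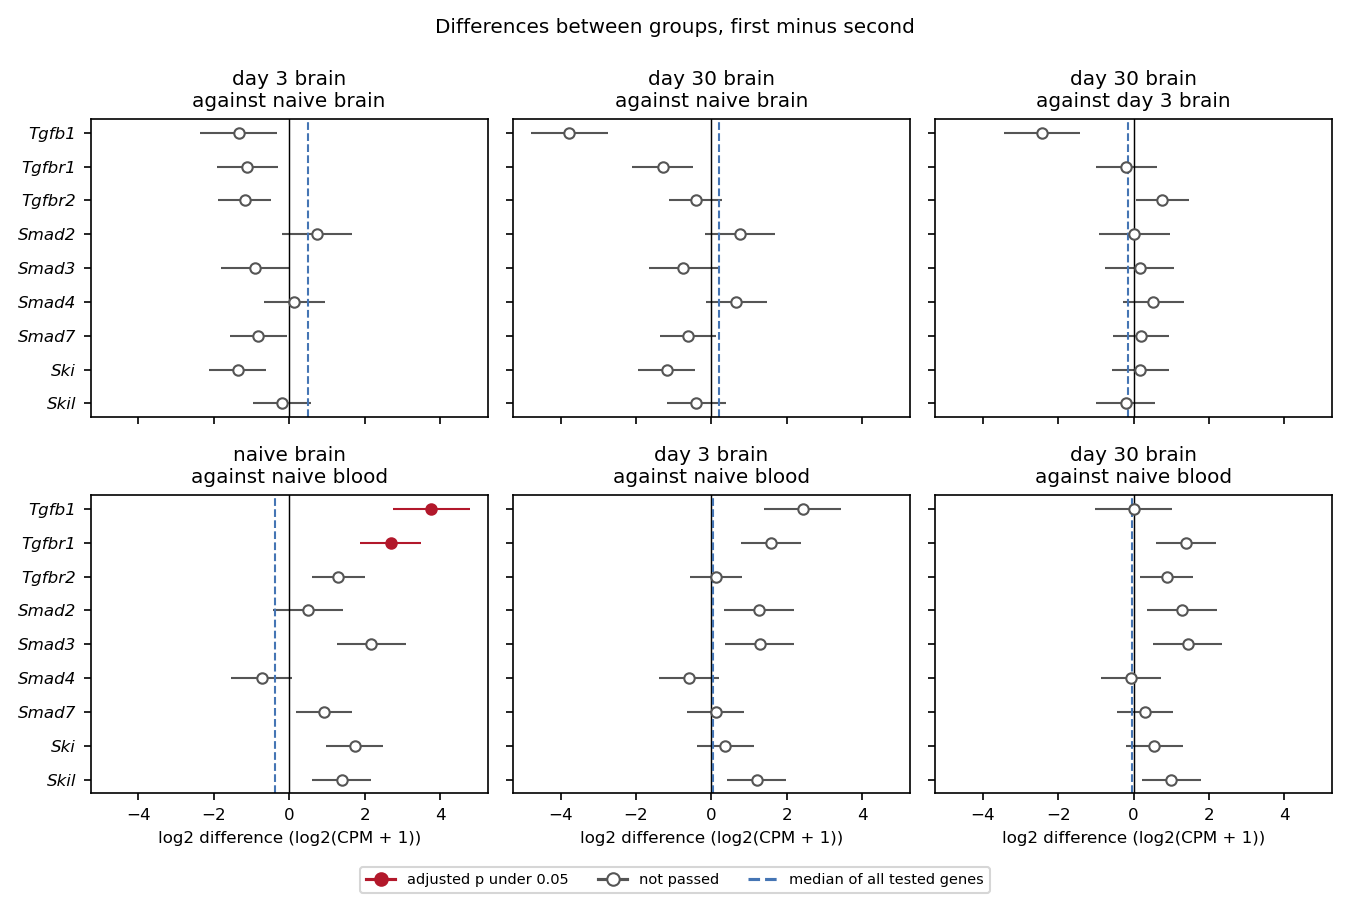
Log2 differences of the 9 genes in the 6 comparisons, first group minus second, with bars of 1 SE. Filled red points passed an adjusted p of 0.05 by limma, which holds for Tgfb1 (3.77) and Tgfbr1 (2.69) between naive brain and blood, and the dashed line is the median over all tested genes.

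Set against blood, 0 members passed at day 3 (1.18% of tested genes called) and 0 at day 30 (0.711%). At day 3 only Tgfb1 had an unadjusted p under 0.05, with all 3 libraries above blood (2.43 ± 1.02, adjusted p = 0.414), against 7.54% of tested genes with day 3 above. At day 30 Tgfb1 was level with blood in estimate, at -0.00075 ± 1.02, an error that leaves room for a difference in either direction. Its 8.13 to 21.1 CPM in replicates 1 and 3 spanned the blood value of 14.1 CPM, and replicate 2 was lower than any blood library. Tgfbr1 had estimates of 1.58 ± 0.80 at day 3 and 1.39 ± 0.80 at day 30 (adjusted p = 0.620 and 0.578). Skil was the only member with all day 30 libraries above blood (0.9976 ± 0.78, adjusted p = 0.711), against 7.35% of tested genes, and it overlapped with unscaled CPM. The 3 comparisons with blood share its libraries, and the 2 with naive brain share that group.

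By group means, Tgfb1 ran from naive brain (115 ± 94.1 CPM, SD, n = 3) through day 3 (45.5 ± 41.0) and day 30 (9.89 ± 10.4) to blood (7.01 ± 6.15). Neighbours in this order overlapped in every case, and none differed by limma. Tgfbr1 had the same order, with 214 ± 46.0, 144 ± 109, 91.2 ± 43.3 and 38.2 ± 27.8 CPM, again with overlapping neighbours. Tgfbr2 ran from naive brain (301 ± 26.2) through day 30 (227 ± 43.5) and day 3 (143 ± 61.1) to blood (133 ± 70.6), and only the last pair overlapped. Blood had the lowest group mean for 8 of the members. The exception was Smad4, which was lowest in naive brain (66.5 ± 50.5 CPM) and highest at day 30 (96.2 ± 53.1 CPM). These orders depended on the scaling. By unscaled means blood was lowest only for Tgfbr1, Smad3, Ski and Skil. It was then the highest group for Smad4 (129 ± 3.87) and Smad7 (100.5 ± 34.4). Tgfb1 was then lowest at day 30 (7.80 ± 6.62, against 9.38 ± 7.48 in blood), and Tgfbr1 highest at day 3 (148 ± 109).

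Levels of different genes were compared only per kilobase of exon, as the union of annotated exons, which ranged from 3712 bases for Smad4 to 9694 for Skil. In naive brain Ski (38.0 ± 6.54 CPM per kb), Tgfbr2 (36.8 ± 3.20) and Tgfbr1 (32.8 ± 7.05) were the highest members, while Smad2 (6.45 ± 5.58) and Smad3 (9.50 ± 0.785) were the lowest. In blood Smad4 led with 24.8 ± 2.95 CPM per kb, followed by Tgfbr2 with 16.2 ± 8.63 and Smad7 with 15.4 ± 3.16, and Tgfb1 was the lowest with 1.39 ± 1.22. At day 30 Tgfb1 was also the lowest, with 1.96 ± 2.07 CPM per kb, and Tgfbr2 the highest with 27.8 ± 5.32. Smad2 and Smad3 were below Smad4 in mean level per kb in all 4 groups.

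**Figure D3:**
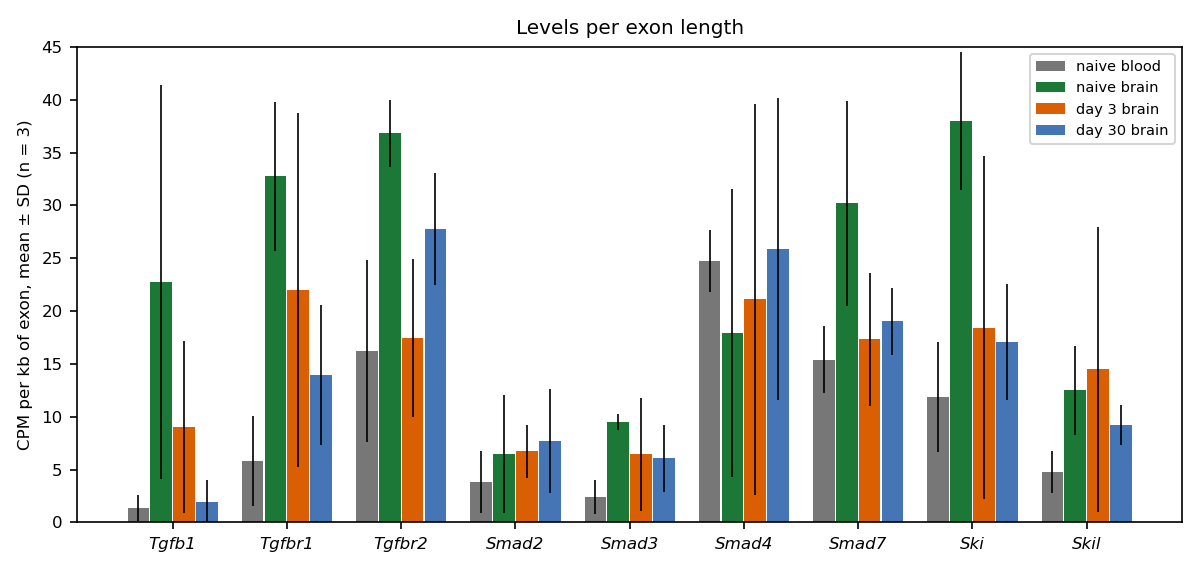
Mean level of each gene per kilobase of exon in the 4 groups, as bars from 0 with SD over 3 libraries, error bars being clipped at 0. Tgfbr2 stays between 16.2 and 36.8 CPM per kb in all groups, while Tgfb1 lies between 1.39 and 22.8.

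Microglia marker reads were set beside Tgfb1 in each library. Naive brain replicates 1 to 3 had shares of 1.34%, 1.07% and 2.19%. Day 3 had 1.503%, 0.405% and 0.671%, and day 30 had 0.565%, 0.199% and 0.296%. The library with the highest share (naive brain replicate 3) had the most Tgfb1 and the brain library with the lowest share (day 30 replicate 2) had the least. Within groups the order was not kept throughout: naive brain replicate 1 had a higher share but less Tgfb1 than replicate 2 (36.8 against 88.4 CPM), as did day 3 replicate 3 beside replicate 2 (15.5 against 28.7 CPM). Blood libraries, with at most 0.0455%, had 2.74 to 14.1 CPM of Tgfb1. These Tgfb1 levels are scaled CPM, whereas the shares are of unscaled reads. With unscaled CPM the same brain libraries held the highest and lowest Tgfb1 (105 and 0.580). Day 3 replicates 1 and 2 were then nearly level, at 57.1 and 54.4, in place of 92.2 and 28.7 when scaled. The part of microglia reads in the differences of Tgfb1 and the other members was not tested. By likeness of profile, measured as the root mean square difference of log2(CPM + 1) over the 12 libraries after centring each gene on its mean, the nearest genes to Tgfb1 were AI837181 (0.619) and Cd33, a sialic acid-binding receptor of myeloid cells (0.785). The median over 10799 candidate genes was 2.03. Cd33 measured 136 ± 90.3 CPM in naive brain, 49.4 ± 56.1 at day 3, 12.4 ± 14.2 at day 30 and 8.82 ± 12.03 in blood.

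**Figure D4:**
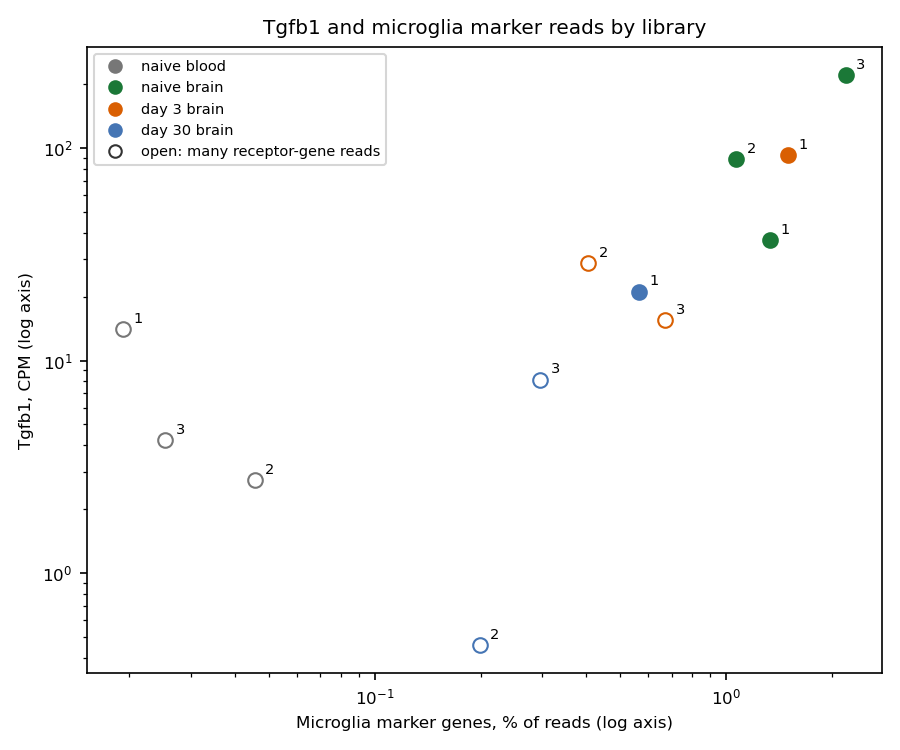
Tgfb1 level in scaled CPM against the share of unscaled reads on 12 microglia marker genes in each library. Both axes are log, with replicate numbers beside the points. Brain libraries run from 0.199% and 0.459 CPM to 2.19% and 219 CPM, and blood libraries lie at 0.0192% to 0.0455%.

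Profiles of the other members lay closer to their nearest genes. Smad7 lay nearest to Smarcc1, a chromatin remodelling subunit, and Nfkb1, an NF-kappa B subunit (0.212 and 0.251), and Ski to Plec and Fis1 (0.248 and 0.280). Tgfbr2 was nearest to Bbx and Huwe1 (0.347 and 0.356), Smad4 to Serinc1 (0.326), Skil to Lrpap1 and Fam117b (0.396 and 0.409) and Smad3 to Ifnar1, an interferon receptor chain, and Arhgef6 (0.454 and 0.467). Smad2 was nearest to Uxs1 and Gaa (0.485 and 0.528) and Tgfbr1 to Tmbim4 and Cebpg (0.517 and 0.601). Among the members themselves the closest pairs were Tgfbr2 with Smad7 (0.502), Tgfbr2 with Ski (0.597) and Smad7 with Ski (0.604). These profiles share library depth and background.

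Beyond the 9 members, 67 other genes of the pathway were listed by role, and all were tested. Between naive brain and blood 6 rose and 1 fell in brain, against 6.61% and 0.975% of tested genes. The balance turned with the scaling, to 3 higher and 9 lower with unscaled CPM and 6 and 12 by DESeq2. Median centring gave 14 and 0, quantile normalization 3 and 0, and the background term 0 and 0. Of the 19 genes of ligands, latency and activation, Nrros, which anchors latent TGF-beta 1 on myeloid cells, rose to 182 ± 119 CPM from 12.3 ± 10.5 CPM (4.03 ± 0.91, adjusted p = 0.00180). All of its naive brain libraries (116, 112 and 320 CPM) exceeded all blood libraries (2.16, 23.0 and 11.6 CPM), as in 15.6% of tested genes. Ltbp2, a latent TGF-beta binding protein family member of the matrix, fell to 3.96 ± 3.76 CPM from 43.7 ± 11.7 CPM (-3.43 ± 1.03, adjusted p = 0.0261), a call that held under 13 of 24 alternatives. It ended without any 1 of the 3 blood libraries and without naive brain replicate 2 or 3 (adjusted p = 0.0518 to 0.137).

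Of 16 genes known to respond to TGF-beta, 4 rose and 0 fell in naive brain: Gadd45b, Id2, Tsc22d1 and Runx3, the last 2 named after their values were seen. Tsc22d1 (2.86 ± 0.90, adjusted p = 0.0363) held under 11 of 24 alternatives and Runx3 (2.59 ± 0.76, adjusted p = 0.0228) under 17 of 24, and both were lost with unscaled CPM and quantile normalization. Gadd45b, a stress-induced regulator of MAP kinase signalling, rose to 147 ± 69.1 CPM from 2.09 ± 1.49 CPM (5.60 ± 0.95, adjusted p = 2.91e-05). Id2, an inhibitor of basic helix-loop-helix factors active in effector CD8 T cells, rose to 1753 ± 490 CPM from 169 ± 66.1 CPM (3.41 ± 0.72, adjusted p = 0.000926). The calls of Nrros, Gadd45b and Id2 were each lost only with the background term, among 24 alternatives (adjusted p = 0.884 to 0.9995). It was the only alternative to adjust for background in this comparison, and it is estimated from the stroke groups alone. The list median was 2.07 beside -0.37 over all tested genes, and microglia reads and background moved with this comparison as given above.

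Pmepa1, a target that dampens the signal by holding Smad2 and Smad3, rose in naive brain to 173 ± 119 CPM from 23.3 ± 7.27 CPM (2.66 ± 0.82, adjusted p = 0.0322). That call ended without naive brain replicate 1 or 3 or blood replicate 1 or 3 (adjusted p = 0.0534 to 0.213), with unscaled CPM (adjusted p = 0.158) with quantile normalization (adjusted p = 0.238) and with the background term (adjusted p = 0.9995). Itgae, which encodes the CD103 chain that TGF-beta induces, measured 12.01, 40.6 and 14.1 CPM in naive brain, compared with 54.1, 90.0 and 48.2 CPM in blood (-1.64 ± 0.86, adjusted p = 0.214). On the scaled CPM given here, all blood libraries were above all naive brain libraries for Itgae. The share of tested genes with brain below blood is given only for unscaled CPM, where it was 26.1%. Itgae was at 58.6, 29.1 and 26.8 CPM at day 3 and 31.0, 29.8 and 24.4 CPM at day 30. The coreceptor gene Tgfbr3 measured 7.85 ± 6.74 CPM in naive brain, compared with 53.5 ± 37.9 CPM in blood (-2.90 ± 1.10, adjusted p = 0.0865).

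After stroke, 1 of the 67 genes rose at day 3 against naive brain (0.152% of tested genes were higher) and 0 fell, and at day 30 0 rose and 0 fell. By DESeq2 8 were higher at day 3 and 2 at day 30, and without day 30 replicate 1 limma gave 1 higher and 2 lower at day 30. The gene was Thbs1, which encodes thrombospondin 1, a protein able to activate latent TGF-beta, at 532, 390 and 153 CPM against 15.5, 0.431 and 0.794 CPM (6.51 ± 1.03, adjusted p = 0.000262). At day 30 it measured 17.2, 3.21 and 0.452 CPM, and it fell against day 3 (-6.04 ± 1.03, adjusted p = 0.000527). The call of the rise at day 3 against naive brain was lost with median centring (5.45, adjusted p = 0.0814). Within the low background libraries, where day 3 is 1 library, the difference was 7.26, and a test on 1 library cannot decide. Of all tested genes 0.139% were lower at day 30 than at day 3. The other listed gene that fell was Tgfbi, a matrix protein induced by TGF-beta, with 959, 177 and 55.2 CPM at day 3 and 11.5, 2.30 and 7.68 CPM at day 30 (-4.90 ± 0.95, adjusted p = 0.00324). Without day 3 replicate 1 the Tgfbi call ended (adjusted p = 0.0986), as it did with median centring and within either background class (adjusted p = 0.1903 to 0.711). Some monocyte and macrophage markers were also high at day 3, and others were not. Spp1 measured 9672, 788 and 807 CPM and Fn1 977, 161 and 94.8 CPM, against at most 12.6 and 19.4 CPM in naive brain. Lyz2 measured 7864, 413 and 495 CPM, against 848, 1923 and 624 CPM in naive brain. Like Lyz2, the markers Cd68, Itgam and Ly6c2 were below every naive brain library in day 3 replicates 2 and 3. In scaled CPM, replicate 1 was the highest day 3 library for Spp1, Fn1 and Lyz2 as for Thbs1 and Tgfbi. The part of monocytes and macrophages in the Thbs1 and Tgfbi values was not tested. With the replicate block 6 of the 67 genes were lower at day 30 in place of 2.

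Against blood, 5 of the 67 rose at day 3 (1.1% of tested genes were higher) and 1 at day 30 (0.676%), and 0 fell at either time. At day 3 these were Gadd45b (4.73 ± 0.95, adjusted p = 0.00116), Thbs1 (4.17 ± 1.03, adjusted p = 0.0171), Tgfbi (4.13 ± 0.95, adjusted p = 0.00729), the cell cycle inhibitor gene Cdkn1a (3.84 ± 0.97, adjusted p = 0.0213) and Tsc22d1 (3.55 ± 0.90, adjusted p = 0.0222), the last named after its value was seen. Without day 3 replicate 1, 0 of the 67 passed in this comparison. At day 30 it was Id2 (3.20 ± 0.72, adjusted p = 0.0100), which ended without day 30 replicate 1 (adjusted p = 0.144) or blood replicate 3 (adjusted p = 0.0770), and held under 20 of 25 alternatives.

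**Figure D5:**
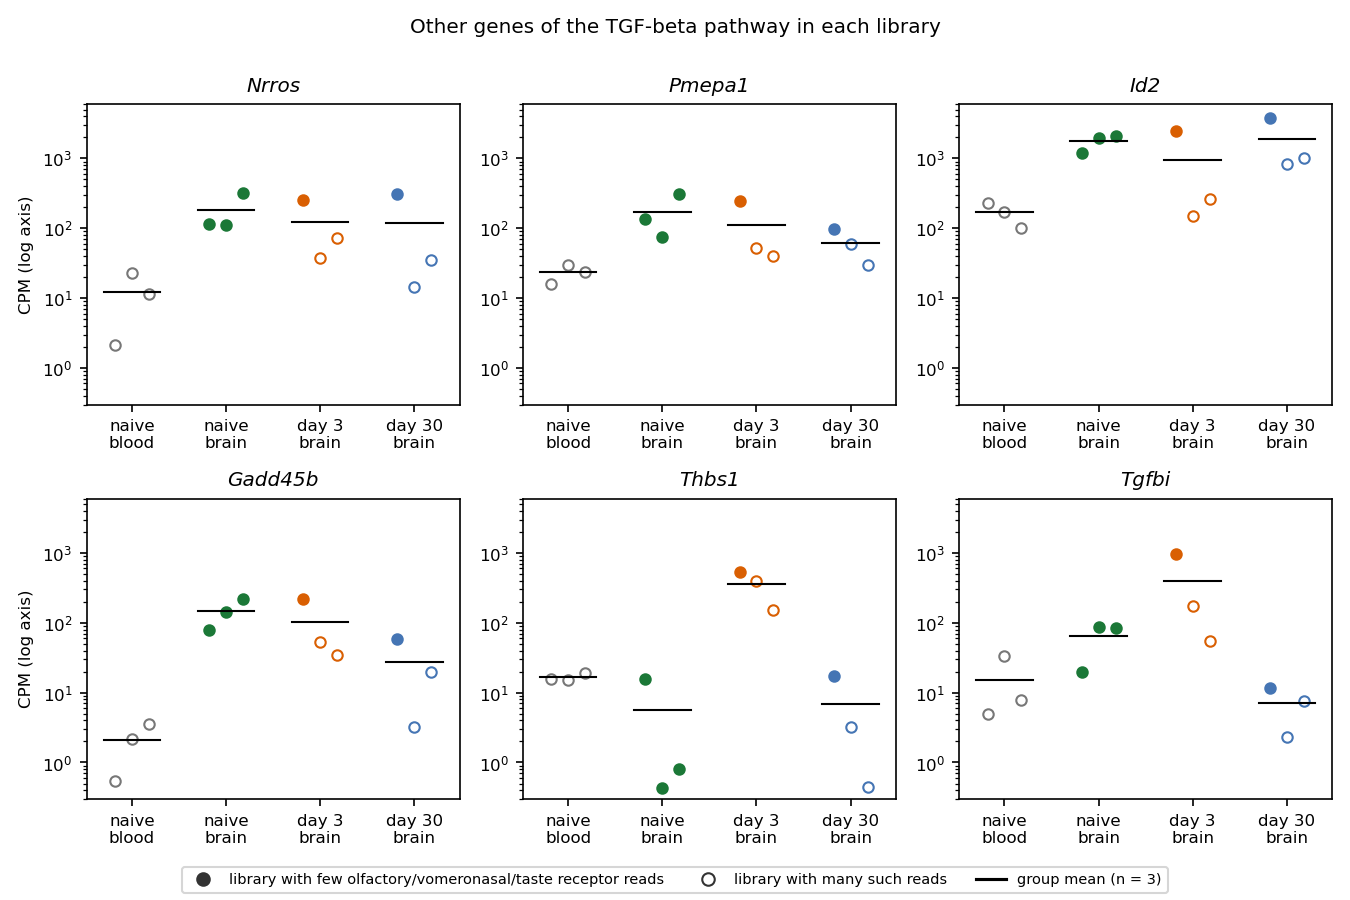
CPM of 6 other pathway genes in the 12 libraries, on a log axis, drawn as for the 9 members. Thbs1 lies at 153 to 532 CPM at day 3 and at most 19.0 CPM in every other library, and Nrros reaches 320 CPM in naive brain.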

How the data were processed

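RNA-seq libraries (SMART-Seq v4) from sorted CD8 T cells of 4 groups of 3 samples were compared. Per the submitters' processing notes, FastQC 0.11.2, STAR 2.5.3a, featureCounts of the Subread package and edgeR were used with the mm10 build. For annotation, strand setting and filters, the sources used here say nothing. As deposited by the authors, the data are 1 table named as CPM, whose columns sum to 526580 to 2086820, so its values are a signal scaled by an adjusted library size. The plan had assumed plain CPM, and the same test was kept. Whole reads were recovered from the steps of the values (100% of values whole to within 1e-06 reads), giving 1104490 to 21014171 reads per library. A count of 0 allows up to 3 reads, or 0.298 to 1.65 CPM.

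A gene was tested where 3 or more libraries had 1 CPM or more (22352, all 9 members included, with 1585 left out). The test was limma 3.58.1 in R 4.3.3 with a variance trend, on log2(CPM + 1), over all 12 libraries, two-sided, in 6 comparisons, with Benjamini-Hochberg adjustment over all tested genes and a threshold of 0.05. The procedure was tested on simulated data. The members and gene lists were chosen with earlier results of these data known. Besides the members, up to 4 other pathway genes per comparison that passed were named by largest difference, with Itgae, Tgfbr3 and Pmepa1 always, and the 2 genes nearest to each member in profile with a mean of at least 10 CPM. Some genes that this rule names are not reported here. The split by background, at 1335 unscaled CPM of receptor genes, was chosen after seeing the data.

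Alternatives were other pseudocounts and filters, unscaled CPM, quantile normalization, median centring, edgeR 4.0.16 and DESeq2 1.42.0 on the recovered reads, fits on 2 groups alone, a replicate block, a background term, fits within background classes and leaving out each library. Separation of groups on unscaled CPM was added after seeing the data. Replicate numbers come from the labels. Deviations of same-numbered day 3 and day 30 libraries correlated at 0.53, 0.284 and 0.165, and the replicate block treats them as pairs. For replicate 3 a library of another number correlated better, at 0.214. Replicate 1 was the only low background library at both times, so a pairing cannot be told apart from background. In no other comparison were all 3 correlations above 0.1. No 2 libraries had equal counts in more than 3.61% of genes. Promoter coordinates are those of RefSeq on GRCm38.p6, the assembly of mm10, and Python 3.11.15 was used for tables and figures.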

Additional observations from a re-analysis of the deposited data

How the results depend on the processing

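Of 1350 values of the 9 members under alternatives, 1332 kept their side of the threshold, 3 passed newly and 15 no longer passed. Only the 2 calls of the main fit, Tgfb1 and Tgfbr1 between naive brain and blood, could be lost. Each had 24 alternatives, and all 15 losses fell there. The other values were not called in the main fit. A value not called counted as kept even where its sign turned, as for Skil between day 3 and naive brain in 8 of 25 alternatives. Between naive brain and blood, members called numbered 2, against 0 with unscaled CPM, quantile normalization or a background term, 1 by edgeR and 1 by DESeq2, and 0 to 2 when leaving out each library. The lowest came without naive brain replicate 3, and 1 was left without any other library of these groups. Between day 30 and naive brain members called numbered 0, against 1 (Tgfb1) by DESeq2, and 0 to 1 when leaving out each library, with 1 only without day 30 replicate 1. The cause of these changes was not tested. With a replicate block, members called were 2 between naive brain and blood and 0 in the other 5 comparisons. Genes called between day 30 and day 3 went from 57 to 538, where the block also takes up the background of replicate 1. Fits within background classes cannot be made between naive brain and blood, because each group holds 1 class. For the same reason the background term is estimated from the stroke groups alone, and cannot separate tissue from background there.

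Counts over all genes moved more. Between naive brain and blood 1478 genes were higher and 218 lower, against 1322 and 2608 by DESeq2, 2882 and 12 with median centring, 693 and 870 on unscaled CPM and 35 and 0 with the background term. The all-gene median in that comparison was -0.37, against -1.05 with unscaled CPM, -0.14 with quantile normalization and 0.90 with median centring. Relative to it Tgfb1 was higher by 4.13, 3.69 with unscaled CPM, 3.66 with quantile normalization and 1.41 with the background term, and Tgfbr1 by 3.05, 2.54, 1.64 and 2.06. Genes called between day 3 and naive brain numbered 160, against 17 by edgeR and 1052 by DESeq2, and between day 30 and naive brain 50, against 6 and 253. Between day 30 and day 3 DESeq2 called 163, against blood 561 in place of 264 at day 3 and 296 in place of 159 at day 30. Depth limits low values most, as for Tgfb1 in day 30 replicate 2.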

Other observations

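Within a library, ratios of 2 members do not depend on the scaling of that library. The log2 ratio of Skil to Ski, the paired repressors, was -0.84 ± 0.31 (SD, n = 3) in naive brain and 0.35 ± 0.40 at day 3. All day 3 libraries (-0.10 to 0.66) lay above all naive brain libraries (-1.04 to -0.48), while day 30 (-0.63 to 0.45) and blood (-1.30 to 0.71) overlapped both. The log2 ratio of Tgfbr1 to Tgfbr2 was -0.51 ± 0.30 in naive brain, -0.45 ± 1.13 at day 3, -1.40 ± 0.85 at day 30 and -1.94 ± 1.82 in blood, with overlapping ranges. Smad2 to Smad3 ranged from -3.40 to 0.86 among the 3 naive brain libraries alone. These ratios were examined after the data were seen and were not tested.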
